A study of Mus musculus with 6 samples.

Results

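Cytochrome P450 enzymes are heme proteins that add oxygen to sterols, fatty acids, retinoids, drugs and other foreign compounds, and Hmox1 codes for the enzyme that breaks heme down. Mouse P450 genes were taken as all genes whose symbol is Cyp followed by a family number, a subfamily letter and a gene number. The arrays carried 82 of them among 19938 named genes, each with 1 probeset, and 16 of the 82 had a log2 intensity above 7 on at least 3 of the 6 arrays, the level required for a test. That was 19.5% of the P450 genes, against 55.3% of all named genes. None of the 16 passed the adjusted threshold, and the clearest shifts were a higher Cyp2e1 and a higher Cyp2j9 with Cre.

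The tested animals were Hmox1f/f PdgfraCre mice, in which Cre under the Pdgfra promoter, active in adipose precursors (APs), acts on an Hmox1 gene with loxP sites around exon 2, and the controls were Hmox1f/f mice with the same floxed gene and no Cre. Both were on the C57BL/6J background, received a high fat diet (HFD) for 8 weeks from 6 weeks of age, and gave visceral white adipose tissue (viWAT) that was digested for bead purification of APs, although the labels also call the material viWAT. Each genotype had 3 arrays, Cre 1 to Cre 3 and f/f 4 to f/f 6, each holding 200 ng of RNA from a pool of 2 mice. The controls lacked Cre, so an effect of Cre itself and one of losing Hmox1 cannot be told apart.

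Hmox1, the targeted gene, was lower on every Cre array than on any control array. It had log2 intensities of 11.25, 11.36 and 10.74 on Cre 1 to Cre 3, against 11.90, 11.63 and 12.32 on f/f 4 to f/f 6. The difference was -0.83 ± 0.23 (SE, adjusted p = 0.266, limma) with no overlap between the groups. Of all 11024 genes tested, 21.2% were likewise lower without overlap. Macrophage markers were also lower with Cre, 8 of 8 with a median difference of -0.40, and their part in the Hmox1 values was not tested. The mean log2 intensity of 7 precursor markers lay between 9.77 and 10.11 with Cre and between 9.92 and 10.09 without it. That of 7 adipocyte markers, a cell type outside the precursor fraction, lay between 12.79 and 12.91 with Cre and between 12.56 and 12.74 without it, and that of 8 macrophage markers between 10.78 and 11.07 with Cre and between 11.25 and 11.32 without it. Single arrays stood apart by genes of other organs: Cre 1 by hepatocyte markers and part of the epididymal markers, and Cre 3 by epididymal Adam7. Array f/f 6 stood apart by spermatid markers and by part of the epididymal and Leydig cell markers. Values are given beside the genes they touch. The spermatid markers, with a mean of 10.59 on f/f 6, also reached 8.24 on f/f 5, 8.02 on Cre 3 and 7.51 on Cre 1. Their mean was 6.28 on Cre 2 and 6.92 on f/f 4. In such material fewer cells of a type and less RNA per cell cannot be told apart.

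P450 families differ in what they do and where they are made. Families Cyp1 to Cyp3 include most enzymes that oxidise drugs and pollutants, and many of these genes are made chiefly in the liver. Cyp2j and Cyp4 enzymes oxidise arachidonic acid and other fatty acids, while Cyp7, Cyp8, Cyp27 and Cyp39 act in bile acid synthesis, Cyp11, Cyp17 and Cyp21 in steroid hormone synthesis, and Cyp26 in the breakdown of retinoic acid. Most microsomal P450 enzymes receive electrons from P450 reductase or cytochrome b5, and mitochondrial ones from adrenodoxin.

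The 250 bases upstream of the start of the gene are shown for Cyp2e1 and Cyp2j9, which had the smallest p-values, and for Cyp1b1, the only one of the 16 tested genes below every control array on all Cre arrays. They come from RefSeq on GRCm38.p6, at chr7:140763569-140763818 on the plus strand, chr4:96591486-96591735 on the minus strand and chr17:79715062-79715311 on the minus strand, each written 5′ to 3′ along its gene. Capitals mark TATAAA, the TATA box, and GCGTG, the core of the element bound by the aryl hydrocarbon receptor (Ahr), which reads CACGC where it lies on the opposite strand.
Cyp2e1: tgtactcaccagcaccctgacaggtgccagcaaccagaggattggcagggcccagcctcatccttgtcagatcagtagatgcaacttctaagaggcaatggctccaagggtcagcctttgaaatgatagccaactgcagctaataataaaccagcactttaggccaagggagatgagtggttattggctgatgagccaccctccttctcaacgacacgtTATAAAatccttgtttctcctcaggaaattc
Cyp2j9: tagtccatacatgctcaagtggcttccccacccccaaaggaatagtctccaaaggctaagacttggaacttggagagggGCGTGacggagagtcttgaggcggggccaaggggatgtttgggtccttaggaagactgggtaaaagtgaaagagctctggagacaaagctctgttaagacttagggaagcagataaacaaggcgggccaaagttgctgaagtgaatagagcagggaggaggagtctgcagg
Cyp1b1: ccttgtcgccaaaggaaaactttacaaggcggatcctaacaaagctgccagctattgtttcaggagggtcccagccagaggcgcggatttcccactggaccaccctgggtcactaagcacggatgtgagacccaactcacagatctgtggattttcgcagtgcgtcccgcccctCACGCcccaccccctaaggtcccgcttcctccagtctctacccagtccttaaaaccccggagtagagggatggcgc
In Cyp2e1 the TATAAA lay 31 bases before the start. GCGTG lay 171 bases before the start of Cyp2j9 on the strand of the gene, and 76 bases before that of Cyp1b1 on the opposite strand. Both motifs were searched on both strands and do not overlap each other. They are common: GCGTG was found in 28.2% and TATAAA in 12.4% of the 32851 mouse promoters searched over the same length. Of the 16 tested P450 genes 12 had a promoter in the table, of which 4 held GCGTG (Cyp1b1, Cyp20a1, Cyp2j9 and Cyp4f16) and 2 held TATAAA (Cyp2e1 and Cyp26b1). A match describes letters and not a bound site.

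Across the 16 tested genes the shifts were small and went both ways. Of these, 9 were higher and 7 lower with Cre, the median difference was 0.07 on the log2 scale, and 12 differed by less than 0.25. Over all 11024 genes tested 57.4% were lower and 42.6% higher, with a median difference of -0.03 and a median SE of 0.10. In limma 0 P450 genes were past an adjusted p of 0.05, as was true of every gene (0% of 11024), the smallest adjusted p being 0.266. At an unadjusted p under 0.05 stood 2 of the 16, Cyp2e1 and Cyp2j9, close to the 15.8% of all genes. Both were higher, a direction that held 3.03% of all genes, and 0 were lower, against 12.8% of all genes. The arrays of the groups did not overlap for 4 of the 16, against 27% of all genes: Cyp2e1, Cyp2j9 and Cyp2u1 were higher (5.82% of all genes) and Cyp1b1 was lower (21.2% of all genes).

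**Figure D1:**
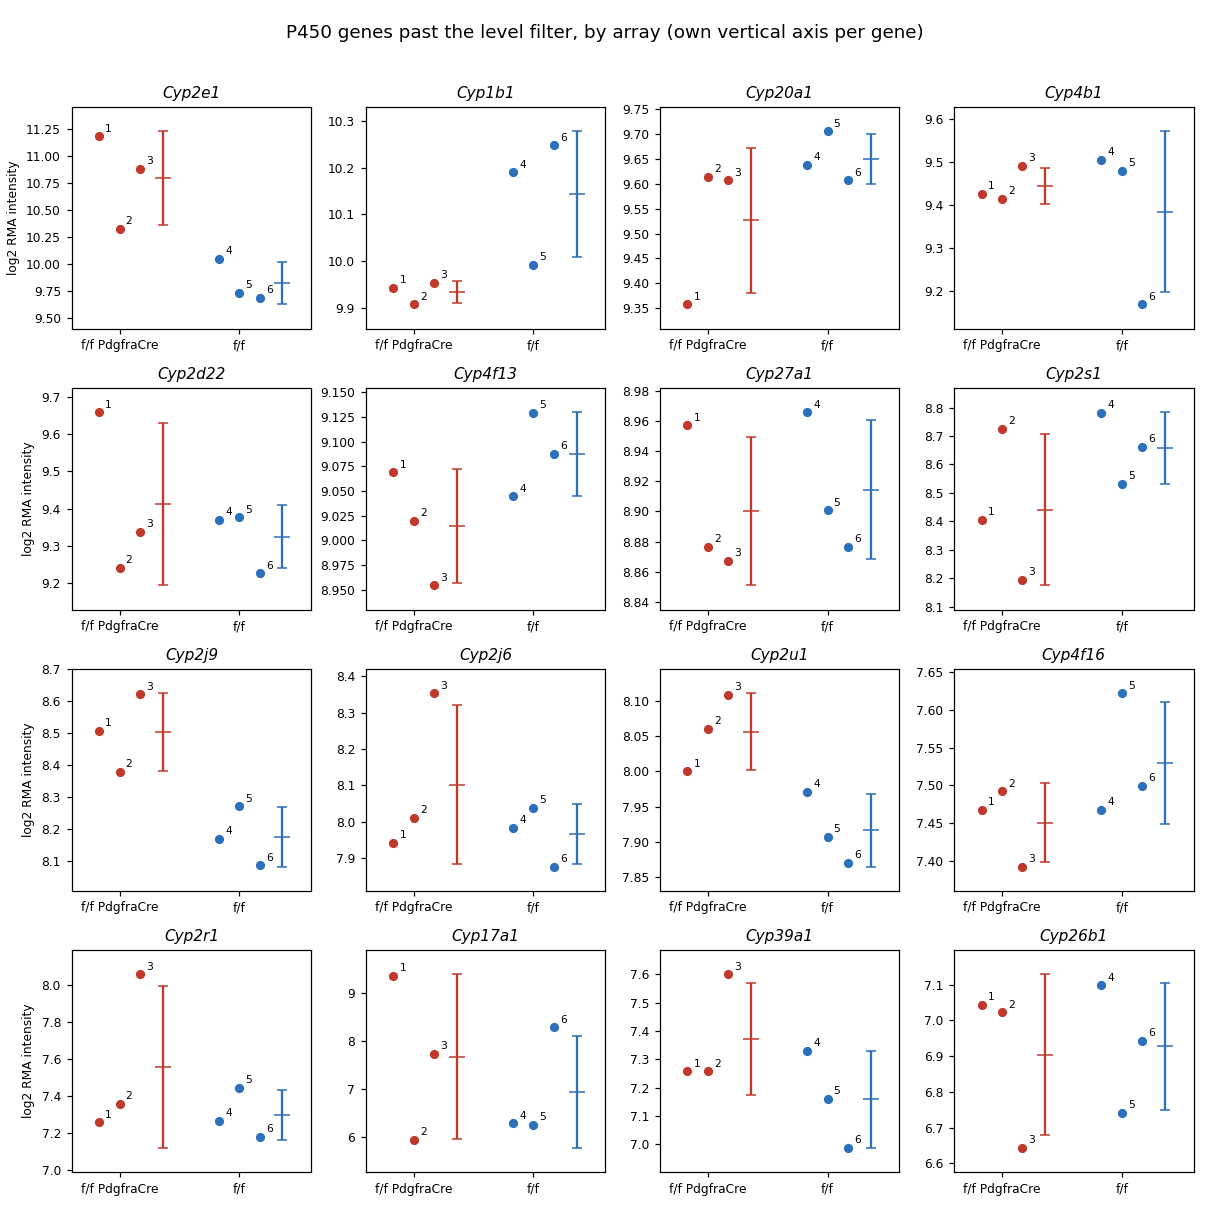
Log2 RMA intensity of the 16 tested P450 genes by array, Hmox1f/f PdgfraCre in red (1 to 3) left of Hmox1f/f in blue (4 to 6), with the mean and SD of each group beside its points and a separate vertical axis for every gene. Cyp2e1, Cyp2j9 and Cyp2u1 had all Cre arrays above all f/f arrays, Cyp1b1 had them below, and Cyp17a1 spread over 3.43 log2 units.

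Cyp2e1, which oxidises ethanol, acetone and small solvents, had the largest difference among the tested P450 genes. It measured 11.18, 10.33 and 10.88 on Cre 1 to Cre 3, against 10.05, 9.73 and 9.69 on f/f 4 to f/f 6. The lowest Cre array thus lay above the highest control array, and Cre 1 was the highest of all. The means were 10.80 ± 0.43 with Cre and 9.82 ± 0.20 without (SD, n = 3 each), a difference of 0.97 (95% CI 0.43 to 1.52) or 1.96-fold, with an unadjusted p of 0.00444 and an adjusted p of 0.266 in limma. Cyp2e1 is a major liver gene, and Cre 1 was also the array with high hepatocyte markers, whose part in the Cyp2e1 values was not tested. Without Cre 1 the difference was 0.78 (unadjusted p = 0.0116, adjusted p = 0.490, limma), and without both Cre 1 and f/f 6 it was 0.71 (unadjusted p = 0.0398, adjusted p = 0.773, limma). The adipocyte markers moved the same way, with 7 of 7 higher with Cre and a median difference of 0.13. At an unadjusted p under 0.05 stood 2 of them, against 3.03% of all genes. The part of the adipocyte markers in the Cyp2e1 values was not tested.

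The Cyp2j genes code for epoxygenases of arachidonic acid. Cyp2j9 measured 8.51, 8.38 and 8.62 on the Cre arrays, against 8.17, 8.27 and 8.09 on the f/f arrays. Its groups were separate, with means of 8.50 ± 0.12 and 8.18 ± 0.09 (SD, n = 3 each) and a difference of 0.33 (95% CI 0.10 to 0.55) or 1.25-fold (unadjusted p = 0.0116, adjusted p = 0.266, limma). Without Cre 1 and f/f 6 together it was 0.28, with an unadjusted p of 0.0824 in limma. Endothelial markers moved the same way, 6 of 6 higher with a median difference of 0.37 and 4 at an unadjusted p under 0.05, against 3.03% of all genes. Adipocyte markers did so too, 7 of 7 with a median difference of 0.13. The part of either in the Cyp2j9 values was not tested. Cyp2j6 measured 7.94, 8.01 and 8.35 on the Cre arrays, against 7.98, 8.04 and 7.88 on the f/f arrays, so that only Cre 3 stood above the controls. Its difference was 0.14 (95% CI -0.16 to 0.44, unadjusted p = 0.312, limma). The other 4 Cyp2j genes were below the level needed for a test. Genes of the Cyp2c, Cyp2d, Cyp2j, Cyp3a and Cyp4a clusters are near copies of each other, so that a probeset may also take up RNA of a neighbour.

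Cyp2u1, known in humans as a hydroxylase of long fatty acids, measured 8.00, 8.06 and 8.11 on the Cre arrays, against 7.97, 7.91 and 7.87 on the f/f arrays. These groups did not overlap either, but lay close, with a difference of 0.14 (95% CI -0.03 to 0.31, unadjusted p = 0.0920, adjusted p = 0.371, limma). The fatty acid hydroxylases of family Cyp4 showed no such separation. Cyp4b1 measured 9.43, 9.42 and 9.49 on the Cre arrays, against 9.51, 9.48 and 9.17 on the f/f arrays, where f/f 6 was the low one (difference 0.06, 95% CI -0.20 to 0.32). Cyp4f13 measured 9.07, 9.02 and 8.95 with Cre, against 9.04, 9.13 and 9.09 without it (difference -0.07, 95% CI -0.24 to 0.10). Cyp4f16 measured 7.47, 7.49 and 7.39, against 7.47, 7.62 and 7.50 (difference -0.08, 95% CI -0.26 to 0.10). The unadjusted p-values of these 3 genes in limma were 0.598, 0.336 and 0.335.

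Cyp1b1, a target gene of Ahr that oxidises estrogens and polycyclic hydrocarbons outside the liver, was lower with Cre. It measured 9.94, 9.91 and 9.95 on the Cre arrays, against 10.19, 9.99 and 10.25 on the f/f arrays. The Cre arrays were nearly equal and all lay below the lowest control, f/f 5. The means were 9.93 ± 0.02 and 10.14 ± 0.13 (SD, n = 3 each), a difference of -0.21 (95% CI -0.42 to 0.00), with an unadjusted p of 0.0526 and an adjusted p of 0.320 in limma. The difference was -0.28 without f/f 5 (unadjusted p = 0.0167, limma), the only array whose removal took that p under 0.05, and -0.16 without f/f 6 (unadjusted p = 0.142, limma). The macrophage markers were also lower with Cre, 8 of 8 with a median difference of -0.40 and 5 at an unadjusted p under 0.05, as were 6 of 6 mesothelial markers with a median of -0.19 and 1 at such a p. Over all genes 12.8% were lower at such a p. The part of these markers in the Cyp1b1 values was not tested.

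Of 4 tested genes of the Ahr pathway 3 were higher and 1 lower, 0 of them at an unadjusted p under 0.05, with a median difference of 0.08. Ahr itself measured 8.46, 8.50 and 8.61 on the Cre arrays, against 8.45, 8.36 and 8.35 on the f/f arrays (difference 0.14 ± 0.08 SE, unadjusted p = 0.117, limma). All Cre arrays lay above all controls, as for 5.82% of all genes, but Cre 1 (8.46) and f/f 4 (8.45) nearly touched. Nqo1, a quinone reductase, measured 7.30, 6.15 and 6.71, against 7.03, 6.71 and 7.25 (difference -0.28 ± 0.30 SE). The classical Ahr targets Cyp1a1 and Cyp1a2 stayed below the level for a test, Cyp1a1 between 4.91 and 5.36 on all 6 arrays.

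Cyp2s1, an enzyme made mainly outside the liver, measured 8.41, 8.72 and 8.19 on the Cre arrays, against 8.78, 8.53 and 8.66 on the f/f arrays. Cre 2 lay among the controls and the other Cre arrays below them, and the difference was -0.22 (95% CI -0.57 to 0.14, unadjusted p = 0.191, limma). It was -0.36 without Cre 2 (unadjusted p = 0.0268, adjusted p = 0.210, limma) and -0.09 without Cre 3. Cyp2d22, of the drug-oxidising Cyp2d subfamily, measured 9.66, 9.24 and 9.34 with Cre, against 9.37, 9.38 and 9.23 without it. It was high on Cre 1 alone, with a difference of 0.09 (95% CI -0.21 to 0.39, unadjusted p = 0.505, limma) that was -0.04 without Cre 1.

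**Figure D2:**
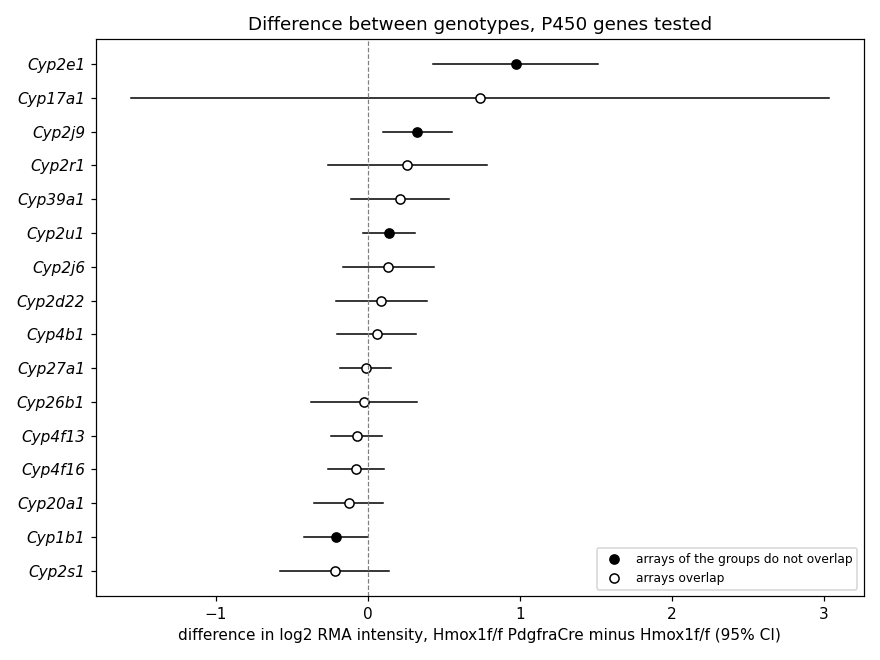
Difference in log2 RMA intensity between Hmox1f/f PdgfraCre and Hmox1f/f for the 16 tested P450 genes, with 95% confidence intervals from limma, filled where the arrays of the groups do not overlap. Only the intervals of Cyp2e1 (0.43 to 1.52) and Cyp2j9 (0.10 to 0.55) lie off 0, and that of Cyp17a1 is the widest (-1.56 to 3.03).

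The groups overlapped for Cyp27a1, Cyp39a1, Cyp2r1 and Cyp20a1. Cyp27a1, the mitochondrial sterol hydroxylase, measured 8.96, 8.88 and 8.87 on the Cre arrays, against 8.97, 8.90 and 8.88 on the f/f arrays. It had the narrowest interval of the 16 around the smallest difference, -0.01 (95% CI -0.18 to 0.15, unadjusted p = 0.845, limma). Cyp39a1, an oxysterol hydroxylase of bile acid synthesis, measured 7.26, 7.26 and 7.60 with Cre, against 7.33, 7.16 and 6.99 without it (difference 0.21, 95% CI -0.11 to 0.54, unadjusted p = 0.164, limma). Cre 3 was its highest array and f/f 6 its lowest, and the difference was 0.10 without Cre 3, 0.13 without f/f 6 and 0.30 without f/f 4. Cyp2r1, the microsomal enzyme that makes calcidiol from vitamin D, measured 7.26, 7.36 and 8.06 with Cre, against 7.27, 7.44 and 7.18 without it. Cre 3 alone stood apart: the difference was 0.26 (95% CI -0.26 to 0.78, unadjusted p = 0.273, limma) over all arrays and 0.01 without Cre 3. Cyp20a1, an orphan P450 of unknown substrate, measured 9.36, 9.61 and 9.61 with Cre, against 9.64, 9.71 and 9.61 without it, a difference of -0.12 (95% CI -0.35 to 0.10, unadjusted p = 0.233, limma) that was -0.04 without Cre 1.

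Cyp26b1, which clears retinoic acid, measured 7.04, 7.02 and 6.64 on the Cre arrays, against 7.10, 6.74 and 6.94 on the f/f arrays (difference -0.02, 95% CI -0.37 to 0.33, unadjusted p = 0.875, limma). Its groups overlapped. It was the dimmest gene to pass, with at least 3 arrays at 7.02 or above, and Cyp39a1 (7.26) and Cyp2r1 (7.36) came next by the same measure. Just short of passing were Cyp2d40 (6.91), the brain cholesterol hydroxylase Cyp46a1 (6.71) and Cyp4f18 (6.70). Cyp2d40 measured 7.0, 6.87 and 6.09 on the Cre arrays, against 6.95, 6.91 and 6.11 on the f/f arrays, so that Cre 3 and f/f 6 were its low arrays. Cyp46a1 measured 6.63, 6.71 and 6.69 with Cre, against 6.75, 6.60 and 6.73 without it. Cyp4f18 measured 6.66, 6.83 and 6.67, against 6.75, 6.70 and 6.70. Neither of these last genes separated the genotypes.

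Among 14 tested retinoid genes 7 were higher and 7 lower with Cre (median difference 0.03), 1 and 4 of them at an unadjusted p under 0.05, against 3.03% and 12.8% of all genes. Rbp4, the carrier of retinol in blood, measured 11.49, 11.50 and 11.64 on the Cre arrays, against 11.23, 11.24 and 11.01 on the f/f arrays (difference 0.38 ± 0.09 SE, unadjusted p = 0.00591, limma). The adipocyte markers were also higher with Cre, 7 of 7, and their part in the Rbp4 values was not tested. Rdh11, a retinal reductase, measured 7.79, 7.96 and 7.85, against 8.27, 8.22 and 8.81 (difference -0.57 ± 0.17 SE, unadjusted p = 0.0133, limma), with f/f 6 the highest. Aldh1a2, which makes retinoic acid, differed by -0.27 ± 0.10 SE and Dhrs3, which reduces retinal, by -0.26 ± 0.10 SE (unadjusted p = 0.0290 and 0.0445, limma). The arrays of these 4 genes were separated by genotype, as were those of 27% of all genes. The arrays of Dhrs9, the other gene at such a p, overlapped, at 9.22, 9.65 and 9.11 with Cre, against 9.84, 9.61 and 9.68 without it (difference -0.38 ± 0.16 SE, unadjusted p = 0.0455, limma). Mesothelial markers, 6 of 6 with a median of -0.19, and macrophage markers, 8 of 8 with a median of -0.40, were also lower with Cre. Their part in the values of the lower retinoid genes was not tested.

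Cyp17a1, the hydroxylase and lyase that leads progestins to androgens, varied more between arrays than any other tested P450 gene. It measured 9.36, 5.93 and 7.73 on Cre 1 to Cre 3, against 6.29, 6.25 and 8.29 on f/f 4 to f/f 6. Cre 1, Cre 3 and f/f 6 were high and the rest low, whatever the genotype, and the gene passed the level filter through these 3 arrays alone. The means were 7.68 ± 1.72 with Cre and 6.94 ± 1.17 without (SD, n = 3 each), a difference of 0.74 (95% CI -1.56 to 3.03, unadjusted p = 0.467, adjusted p = 0.702, limma). It was -0.11 without Cre 1, 1.61 without Cre 2 and 1.41 without f/f 6.

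Epididymal markers also differed between arrays, and not all in the same pattern. The mean of 7 of them was 8.77, 5.39 and 6.25 on the Cre arrays, against 5.42, 5.81 and 7.24 on the f/f arrays, their summed intensity spanning 323 to 10579 with Cre and 325 to 2573 without it. Adam7, a membrane protein of the epididymal epithelium, measured 11.68, 5.43 and 8.93 with Cre, against 5.49, 5.52 and 7.85 without it, and was the only one of the 7 above the other arrays on all of Cre 1, Cre 3 and f/f 6. Rnase9 was high on Cre 1 and Cre 3, at 11.05 and 6.73, against 3.91 on f/f 6. Lcn5 was high on Cre 1 alone, at 12.21, against 5.39 on f/f 6, and Spink5 likewise was highest there, at 7.10. Gpx5 measured 7.55, 5.17 and 5.25 on the Cre arrays, against 5.25, 6.87 and 10.33 on the f/f arrays, so that Cre 1 came next after f/f 6. Lcn8 and Lcn9 too were highest on f/f 6, but next highest on f/f 5. Their part in the Cyp17a1 values was not tested. The mean of 8 spermatid markers was 7.51, 6.28 and 8.02 on the Cre arrays, against 6.92, 8.24 and 10.59 on the f/f arrays.

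Other steroidogenic P450 genes were dim, and 1 of them stood out on 1 control array. Cyp11a1, which cuts the side chain of cholesterol in the first step of steroid synthesis, measured 5.49, 5.55 and 5.21 on the Cre arrays, against 5.64, 5.49 and 7.06 on the f/f arrays. Only f/f 6 was high. The mean of 5 other Leydig cell markers on f/f 6 was 6.27, and on the other arrays it was 5.32, 5.49 and 5.31 with Cre and 5.47 and 5.54 without it. Among them Hsd3b6, a testicular hydroxysteroid dehydrogenase, measured 7.0 on f/f 6, against at most 5.00 on any other array, and their summed intensity was 469 on f/f 6, against 259 to 306 on the Cre arrays and 300 and 321 on the other control arrays. Their part in the Cyp11a1 values was not tested. The adrenal genes Cyp11b1 and Cyp21a1 stayed between 5.32 and 6.00 on all arrays, and Cyp11b2 between 6.43 and 6.79.

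**Figure D3:**
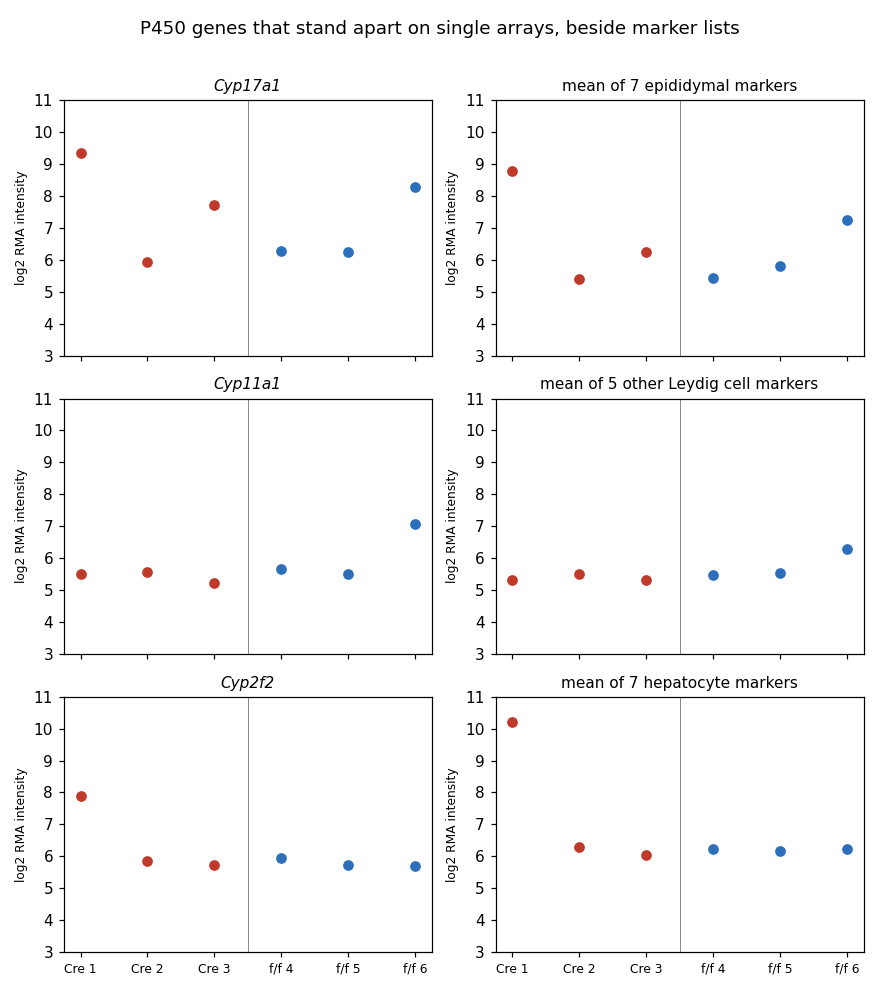
Log2 RMA intensity by array of 3 P450 genes (left) beside the mean over markers of a cell type (right), Hmox1f/f PdgfraCre (Cre) in red left of Hmox1f/f (f/f) in blue, all on 1 vertical scale. Cyp17a1 was high on Cre 1, Cre 3 and f/f 6. The mean of the epididymal markers was 8.77 on Cre 1, 7.24 on f/f 6 and 6.25 on Cre 3, against 5.39 to 5.81 on the rest, and Adam7 alone of them was high on all 3. Cyp11a1 and the mean of the other Leydig cell markers were highest on f/f 6, and Cyp2f2 and the mean of the hepatocyte markers on Cre 1.

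Of 8 tested genes from a list of steroid hormone enzymes outside the P450 family 3 were higher and 5 lower with Cre (median difference -0.10). At an unadjusted p under 0.05 in limma stood 1 and 2 of them, against 3.03% and 12.8% of all genes. The 8 were Hsd11b1, Hsd17b4, Hsd17b7, Hsd17b10, Hsd17b11, Hsd17b12, Hsd3b7 and Srd5a3. Hsd3b1, Hsd3b6, Hsd17b1, Hsd17b3 and Hsd11b2 were below the level filter, so these counts do not describe steroid hormone synthesis as a whole. Hsd11b1, which makes active glucocorticoid, measured 8.83, 8.60 and 8.81 on the Cre arrays, against 8.46, 8.57 and 8.30 on the f/f arrays (difference 0.30 ± 0.10 SE, unadjusted p = 0.0254, limma). Hsd17b11 measured 9.37, 9.44 and 9.39, against 9.76, 9.70 and 9.66 (difference -0.31 ± 0.07 SE, unadjusted p = 0.00359, limma). Srd5a3 differed by -0.30 ± 0.10 SE (unadjusted p = 0.0245, limma). All 3 were separated by genotype, as were 27% of all genes, and their adjusted p-values in limma were 0.273, 0.266 and 0.271.

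The 66 P450 genes below the level filter included whole subfamilies. None of 13 Cyp2c, 6 Cyp3a, 5 Cyp2b and 3 Cyp4a genes passed, nor any of the 3 Cyp11, 2 Cyp7 or the Cyp8 and Cyp21 genes, while 7 of all 44 Cyp2 and 3 of 13 Cyp4 genes did. Of the 66, 62 were under 7 on all 6 arrays. The exceptions were Cyp2f2 and Cyp2d26 on Cre 1, Cyp11a1 on f/f 6 and Cyp2d40, at 7.0, on Cre 1. These values have no test between genotypes.

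Cre 1 stood apart among the dim genes. On it 35 of the 66 (53%) lay above every other array, against 1571 of 8848 other genes below the filter (17.8%), and 6 more tied there with another array for their highest value. Of the 66, 15 (22.7%) lay more than 0.5 log2 units above every other array, against 276 of the other genes (3.12%). On Cre 2, Cre 3, f/f 4 and f/f 5 the number of P450 genes above every other array by this margin was 0, and on f/f 6 it was 1, Cyp11a1. Cyp2f2, a P450 of liver and lung that oxidises naphthalene, measured 7.89 on Cre 1, against 5.70 to 5.95 on the other 5 arrays. Cyp2d26 measured 7.77 on Cre 1, against 5.93 to 6.09. Cyp2c29 and Cyp3a11, major drug-oxidising enzymes of mouse liver, measured 5.39 and 5.29 on Cre 1, against 3.81 to 4.00 and 3.58 to 3.91 elsewhere, values next to the lowest intensities of the arrays. Cyp4a14, a fatty acid hydroxylase, measured 6.44, against 4.70 to 5.09, Cyp2j5 measured 5.98, against 4.25 to 4.70, and Cyp2c50 measured 5.52, against 4.25 to 4.46. The other 8 were Cyp2c67, Cyp3a25, Cyp2a12, Cyp1a2, Cyp2j13, Cyp2c70, Cyp2c54 and Cyp2b9, with Cre 1 values between 5.25 and 6.78. Cyp2j13 was also high on Cre 3, at 5.70, against 4.64 to 4.75 on the rest.

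The hepatocyte markers were high on the same array. The mean of 7 of them was 10.20, 6.29 and 6.02 on Cre 1 to Cre 3, against 6.22, 6.15 and 6.23 on f/f 4 to f/f 6, and Alb, serum albumin, measured 12.66 on Cre 1 and between 6.49 and 6.77 on all others. Their summed intensity was 12739, 586 and 490 with Cre, against 558, 529 and 581 without it. Their part in the values of the dim P450 genes on Cre 1 was not tested. Cyp7a1 and Cyp8b1, liver genes of bile acid synthesis, were dim on every array and not among the 15. Cyp7a1 was highest on Cre 1 by 0.07, at 4.32, 4.17 and 4.09 on the Cre arrays, against 4.25, 3.91 and 4.09 on the f/f arrays. Cyp8b1 measured 5.81, 5.78 and 5.59, against 5.83, 5.59 and 5.49.

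**Figure D4:**
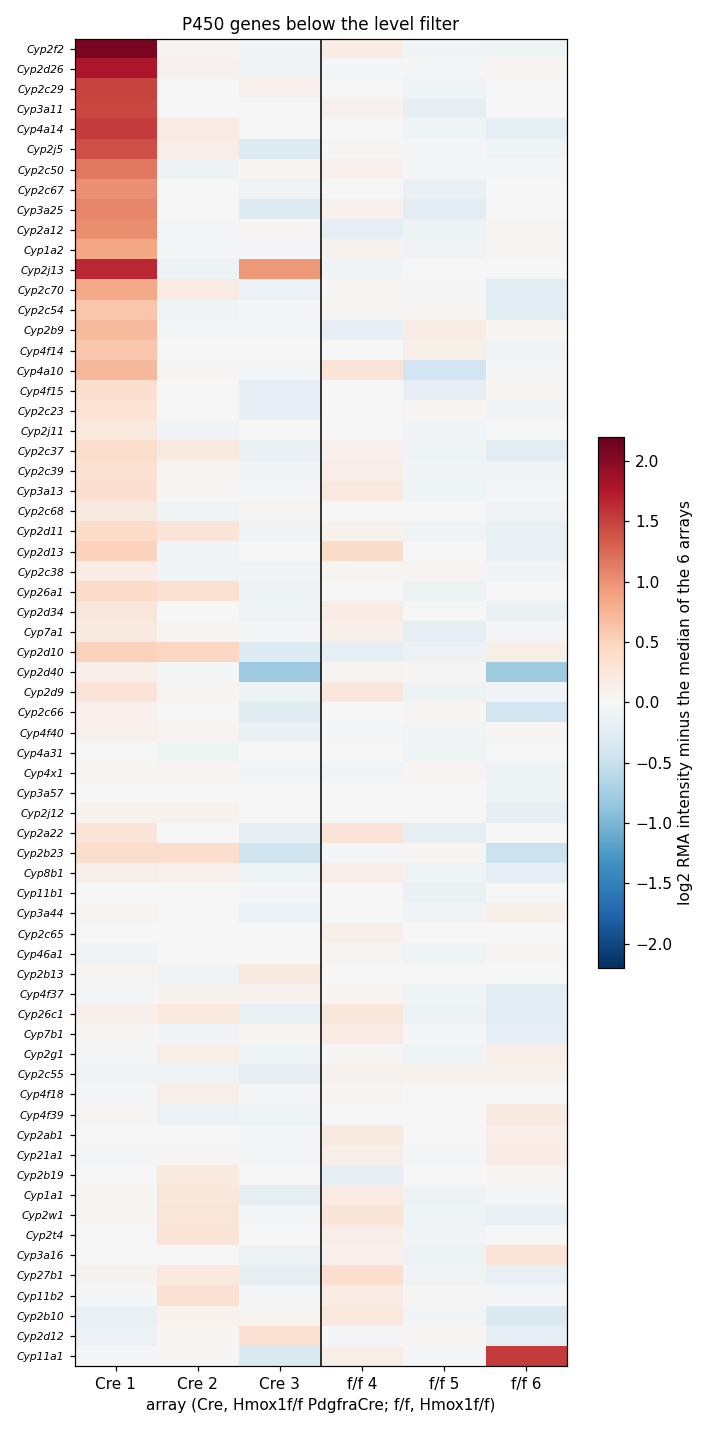
Log2 RMA intensity of the 66 P450 genes below the level filter, each minus its median over the 6 arrays, with Hmox1f/f PdgfraCre (Cre) left and Hmox1f/f (f/f) right of the line. Rows are ordered by how far Cre 1 lay above the highest other array; 15 genes exceeded it by more than 0.5, and Cyp11a1 in the lowest row stood out on f/f 6 at 7.06.

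The P450 genes with symbols of another form were Cyp51, Tbxas1 and Ptgis. All were lower with Cre, as were 57.4% of all genes. At an unadjusted p under 0.05 in limma stood 1 of them, against 12.8% of all genes in that direction. Tbxas1, thromboxane synthase, measured 9.42, 9.71 and 9.23 on the Cre arrays, against 10.001, 9.89 and 9.91 on the f/f arrays (difference -0.48 ± 0.13 SE, unadjusted p = 0.00924, adjusted p = 0.266, limma). Its groups did not overlap, as was true in that direction of 21.2% of all genes. Tbxas1 is made by macrophages, whose markers were lower in the same arrays, and their part was not tested. Cyp51, which demethylates lanosterol in cholesterol synthesis, measured 8.78, 8.89 and 9.16, against 9.01, 8.93 and 9.13 (difference -0.08 ± 0.12 SE). Ptgis, prostacyclin synthase, measured 8.69, 8.72 and 8.67, against 9.02, 8.78 and 8.66 (difference -0.12 ± 0.11 SE).

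Of 15 tested epoxide hydrolases and eicosanoid enzymes, which act beside or after the Cyp2j and Cyp4 enzymes, 12 were lower and 3 higher with Cre, 4 and 0 of them at an unadjusted p under 0.05, with a median difference of -0.17. Over all genes 57.4% were lower and 12.8% lower at such a p. Those 4 were Tbxas1, Alox5, Alox5ap and Lta4h, the last 3 being genes of leukotriene synthesis in myeloid cells. Alox5 measured 7.80, 7.90 and 7.86 on the Cre arrays, against 8.14, 8.15 and 8.19 on the f/f arrays (difference -0.31 ± 0.07 SE, unadjusted p = 0.00318, limma). Alox5ap measured 10.57, 10.83 and 10.36, against 11.10, 10.94 and 11.37 (difference -0.55 ± 0.16 SE, unadjusted p = 0.0119, limma), and Lta4h differed by -0.20 ± 0.07 SE (unadjusted p = 0.0325, limma). The macrophage markers, 8 of 8 lower with a median difference of -0.40, moved with them. So did 5 of 5 tested mast cell markers, with a median difference of -0.87 and 4 at an unadjusted p under 0.05 in limma. The part of either cell type was not tested. Ephx2, the soluble hydrolase that opens P450 epoxides, measured 10.44, 10.40 and 10.56, against 10.53, 10.50 and 10.22 (difference 0.05 ± 0.11 SE), and its groups overlapped.

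The electron donors and partners of P450 enzymes were close to level, with 2 of 8 tested genes higher, 6 lower and 0 at an unadjusted p under 0.05 (median difference -0.04). The smallest p among them was that of Cyb5r1, a cytochrome b5 reductase, at 8.34, 8.50 and 8.37 on the Cre arrays, against 8.67, 8.54 and 8.52 on the f/f arrays (difference -0.17 ± 0.08 SE, unadjusted p = 0.0754, limma). Cyb5a, cytochrome b5, differed by -0.04 ± 0.10 SE, and Fdx1, adrenodoxin, by -0.01 ± 0.09 SE. P450 reductase was not analysed here. Of 8 tested nuclear receptors that control P450 genes 6 were higher and 2 lower, 0 at an unadjusted p under 0.05, with a median difference of 0.10. Pparg, the receptor that drives adipocyte genes, measured 10.61, 10.62 and 10.95 on the Cre arrays, against 10.40, 10.71 and 10.33 on the f/f arrays (difference 0.25 ± 0.14 SE, unadjusted p = 0.129, limma), f/f 5 lying among the Cre arrays. No gene of these lists passed an adjusted p of 0.05 in limma.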

How the data were processed

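The files hold intensity values deposited by the authors per probeset, on a linear scale and rounded to whole numbers from 8 to 20701. By the submitters' processing notes they are robust multi-array average (RMA) values, background-corrected, quantile-normalised and summarised over probes, made in Affymetrix Expression Console 1.1. RMA shrinks differences of dim probesets. Log2 was taken. The number of arrays, 3 per genotype, limits the precision, and nothing in the labels gives a batch or a litter, so p-values measure the spread between pools.

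Of 35556 probesets 21789 had 1 gene symbol in the platform annotation, 1621 several and 12146 none here. The brightest probeset stood for a gene. The 82 P450 symbols all matched RefSeq. Genotype was fitted with limma 3.58.1 in R 4.3.3 (lmFit, eBayes, two-sided) on all 6 arrays, with Benjamini-Hochberg adjustment over the 11024 genes with log2 above 7 on at least 3 arrays. The fit was tested on data simulated with independent normal noise for each gene. These held no single arrays that stand apart and no shifts shared by genes, so they do not show how the fit handles either. Lists were counted, not tested. Every tested P450 gene was named, with arrays for the brightest, widest, smallest-p and filter-edge genes and up to 4 smallest-p genes of a list. Hmox1, Adam7 and other epididymal markers, Alb, Hsd3b6, Dhrs9, Cyp1a1, Cyp7a1, Cyp8b1, Nqo1, Ephx2, Cyb5a and Fdx1 were added for their role. Members and lists were chosen with earlier results of these data known. Alternatives covered filters, normalisation, moderation, array weights, probesets and arrays left out. Figures used matplotlib 3.10.9 in Python 3.11.15.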

Additional observations from a re-analysis of the deposited data

Results flagged for a closer look

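Probesets with several gene symbols were left out of the comparisons, and 7 of them name a P450 gene. The probeset of Cyp4v3 and Klkb1 was above log2 7 on every array. It measured 9.38, 9.12 and 9.05 on the Cre arrays, against 9.04, 9.04 and 9.18 on the f/f arrays. On Cre 1, 2 of the 7 probesets lay above every control array by more than 0.5 log2 units. The probeset of Cyp2c69, Cyp2c67, Cyp2c68 and Cyp2c40 measured 5.09 on Cre 1, against at most 4.58 on any f/f array. The probeset of Cyp4a32, Cyp4a31 and Cyp4a10 measured 5.09 on Cre 1, against at most 4.25 on any f/f array. Their difference between genotypes was not tested.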

How the results depend on the processing

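Over 16 other settings, 1 of them (moderation over the filtered genes only) chosen after seeing the data, 0 of the 16 P450 genes passed an adjusted p of 0.05, and 11 kept their direction in every setting that tested them. Lower with Cre were 7 genes, 20 of 82 without a level filter and 2 of 6 under the stricter filter in the methods, which keeps only the most variable genes. The median difference was 0.07, 0.29 under that filter, 0.0072 with array weights, and -0.050 without Cre 1 and f/f 6, where 1 gene had an unadjusted p under 0.05 in limma. With 1 array left out at a time that count ranged from 2 to 3, the genes lower from 5 to 9, the median from -0.04 (without Cre 1) to 0.12, and Hmox1 from -0.99 to -0.64, beside -0.53 with array weights. Changes of direction were Cyp27a1 0.0087 with a further quantile normalisation and 0.0091 with array weights, Cyp4b1 -0.023 with array weights and -0.04 without the pair, Cyp26b1 0.15 with array weights, and Cyp2d22 -0.085 without the pair. Leaving out 1 array moved Cyp17a1 between -0.11 and 1.61, Cyp2d22 between -0.04 and 0.17, Cyp4b1 between -0.048 and 0.12, Cyp27a1 between -0.04 and 0.012 (-0.061 without the pair), and Cyp26b1 between -0.12 and 0.11. Cyp2e1 stayed between 0.71 and 1.21 (adjusted p 0.0897 to 0.773, limma) and Cyp2j9 between 0.25 and 0.39. No paired analysis was possible because the genotypes share no replicate number.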
